A study of Mus musculus with 12 samples.

Results

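Gene expression in C2C12 cells after 5 days of differentiation was compared with that in proliferating C2C12 cells, over 6 of the 12 arrays of the series. C2C12 is an immortalised line of mouse myoblasts, the mononucleate precursors of skeletal muscle fibres. Proliferating cells were kept in medium with 10% fetal bovine serum up to a confluence of 80 to 90%. Day 5 cells had then spent 5 days in medium with 2% horse serum. Every culture came from this 1 line, and the line is the model's limit: it holds no nerve, vessel or immune cell. Each stage had 3 arrays from independent experiments per the series' design text, hybridised with Cy3-labelled RNA on a one-colour Agilent design for protein-coding and long non-coding transcripts. The labels do not say how far cultures of an experiment were kept apart, and the p-values rest on how far these arrays differ within a stage.

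Myoblasts divide while serum is plentiful and leave the cell cycle when it is withdrawn. Myogenic transcription factors, led by Myod1 and myogenin, then switch on the genes of the contractile apparatus, and the cells fuse into multinucleate myotubes. Many housekeeping proteins have a muscle form encoded by a gene of its own, and the change from general to muscle forms is a known feature of this process.

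A probe was tested where the scanner's flag placed it well above background on 3 of 3 arrays of either stage. This left 21691 of 37246 probes. Probes just outside the filter, whose better stage had 2 such arrays, numbered 3505, with a median level of -6.98 at proliferation and -7.11 at day 5. Those inside had medians of -0.83 and -0.83. Levels here are log2 signals minus the array's 75th percentile, so a level of 0 is the signal that 75% of the array's probes did not exceed. Differences are day 5 minus proliferation on the same log2 scale, with the standard error (SE) of the fit and n = 3 arrays per stage. A call is a Benjamini-Hochberg adjusted p under 0.05 in limma over all probes tested.

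At day 5, 5448 probes (25.1%) were higher and 5461 (25.2%) lower, so 50.3% of the probes tested were called. With a change of at least 1 on the log2 scale the share was 26.5%. A gene was represented by its brightest tested probe. Of 13138 genes, 3346 rose (25.5%) and 3491 fell (26.6%), and for 60.3% the 3 day 5 arrays lay all above or all below the 3 proliferation arrays. These are the background shares for every count given here, and the median difference over all genes was -0.02. The counts in each direction were close, but large changes were mostly rises: 303 genes rose and 192 fell by 8-fold or more, and 97 rose and 11 fell by 32-fold or more.

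Stage and slide cannot be told apart directly. The 3 proliferation arrays lay on slide 1, day 5 arrays 1 and 2 on slide 2 and day 5 array 3 on slide 3. A fit with the slide as a fixed block links the stages only through day 2, with array 1 on slide 1 and arrays 2 and 3 on slide 2. On the slide 1 side its correction thus rests on day 2 array 1 alone, and day 5 array 3 adds nothing to the difference. With this block 2899 probes were higher and 2416 lower. Of the calls of the fit without it, 5017 were made in both fits with the same direction and 0 with opposite directions, and 10763 of 10909 kept their sign. An adjusted p with the slide block is given below where a named call was lost with it. Arrays correlated across probes at 0.986 to 0.991 within proliferation, 0.987 to 0.994 within day 5 and 0.929 to 0.942 between the stages.

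The labels were checked against marker genes. All 10 skeletal muscle markers were higher at day 5 (median 6.86), and all 8 markers of proliferating cells were lower (median -2.54). Myog, which encodes myogenin, had levels of -1.17, -0.56 and -1.06 on the proliferation arrays and 6.44, 6.73 and 6.63 on the day 5 arrays. Top2a, the DNA topoisomerase of dividing cells, had levels of 5.43, 5.43 and 5.26 at proliferation against 2.95, 3.08 and 2.79 at day 5. The stages did not overlap for either gene. RNA came from bulk cultures, in which fewer cells of a type and less RNA per cell cannot be told apart.

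**Figure D1:**
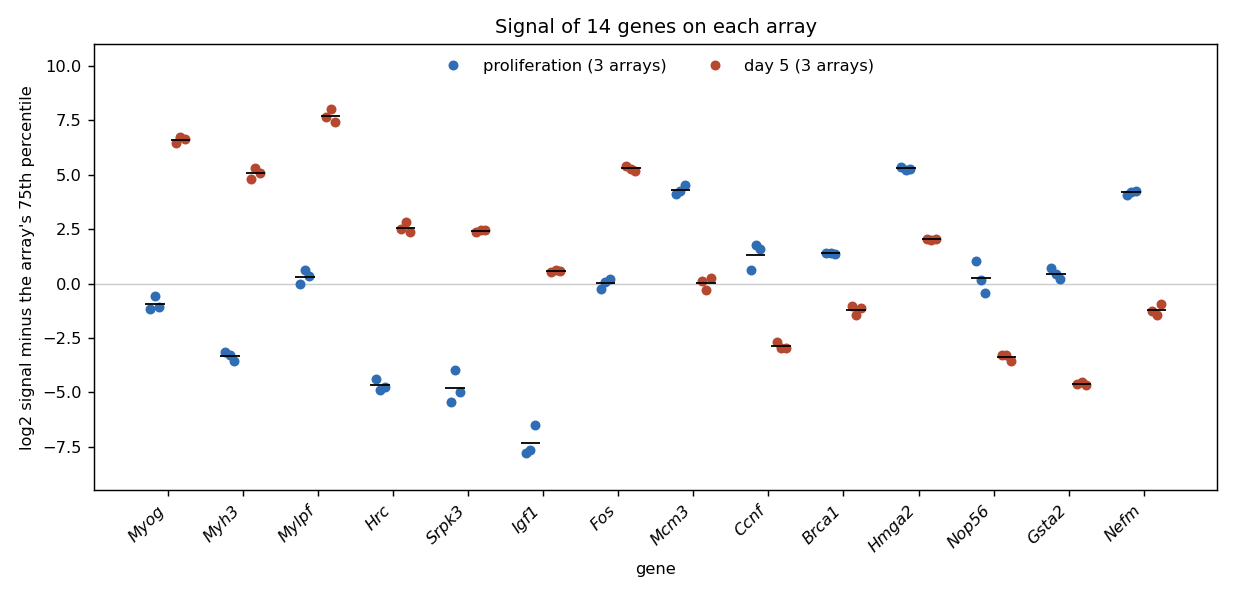
Each point is 1 array and each bar the mean of 3; the vertical axis is the log2 signal minus the array's 75th percentile. The 14 genes are named in the text, and for each of them the 3 day 5 arrays lie apart from the 3 proliferation arrays, as for Myog (6.44 to 6.73 against -1.17 to -0.56).

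Myosin heavy chains, the motors of the thick filament, were the first group examined. All 8 tested genes were called higher, with a median of 5.12, and 6 of the calls held with the slide block. Myh3, the embryonic form (probe NM_001099635), had levels of -3.14, -3.27 and -3.57 at proliferation and 4.79, 5.29 and 5.10 at day 5, a difference of 8.38 ± 0.21 SE (limma adjusted p = 7.69e-10). It had the largest rise among genes well above background on all 6 arrays. Of the adult forms, Myh4 (fast 2B) rose by 6.33 ± 0.24, Myh1 (fast 2X) by 5.85 ± 0.25 and Myh7 (slow) by 5.31 ± 0.22. Myh4 was well above background on 1 of 3 proliferation arrays, so its fold rests in part on signals near background. The perinatal form Myh8 was above background on 0 of 3 proliferation arrays and was at least 16.3-fold higher at day 5. Embryonic, perinatal, fast and slow forms thus rose together. Myh2, the fast 2A form, was higher by 1.39 ± 0.49, a call that did not hold under the slide block (adjusted p = 0.646) or without proliferation array 1 or 3 or any 1 of the day 5 arrays (limma adjusted p up to 0.129).

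Myosin light chains and myosin-binding proteins followed: 9 of 10 tested rose and 1 fell. Mylpf, the fast regulatory light chain, had levels of -0.03, 0.64 and 0.34 at proliferation and 7.66, 8.01 and 7.42 at day 5 (difference 7.38 ± 0.21). Mybph, a myosin-binding protein of fast fibres, had -0.86, -0.58 and -0.68 against 6.81, 6.99 and 7.04 (difference 7.65 ± 0.21). Mybpc2, fast myosin-binding protein C, was above background on 0 of 3 proliferation arrays and at least 66.8-fold higher at day 5. The spread within a stage was small beside these differences. The member that fell was Myl7, the atrial light chain, which was above background on 3 of 3 proliferation arrays and 0 of 3 day 5 arrays. It was at least 3.97-fold lower at day 5, and its call was lost with normexp background correction (adjusted p = 0.239).

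Of 18 troponins, tropomyosins and thin filament caps, 13 rose and 1 fell, with a median of 5.05. Tnnc2, the fast calcium-binding troponin C, had levels of -2.47, -2.62 and -3.52 at proliferation and 5.45, 4.94 and 5.14 at day 5 (difference 8.05 ± 0.27). Slow troponin I (Tnni1) rose by 6.90 ± 0.20 and fast troponin I (Tnni2) by 6.75 ± 0.26. Cardiac troponin I, Tnni3, was not above background on any proliferation array, had day 5 levels of -0.48, -0.38 and -0.16, and was at least 74.7-fold higher. Fast, slow and cardiac members of the troponin I family therefore all rose, and other cardiac markers did not move alike. Of 7 tested cardiac and smooth muscle markers, 2 were called higher (Acta2, Myh6) and 2 lower (Nppb, Nkx2-5), of which the slide block kept the call of Acta2 (adjusted p = 0.673 for Myh6, 0.0668 for Nppb and 0.725 for Nkx2-5). Dropping 1 array could also end these calls in limma. Myh6 lost its call when array 1 of proliferation or array 2 of day 5 was dropped (adjusted p up to 0.0957). Nppb lost it when array 1 or 3 of proliferation, or array 2 or 3 of day 5, was dropped (up to 0.0999). Nkx2-5 lost it when array 3 of proliferation or any single array of day 5 was dropped (up to 0.1145). The 7 had a summed signal, in units of the array's 75th percentile, of 47.8 to 56.0 at proliferation and 58.9 to 73.6 at day 5. The fall in the thin filament list was Tpm3, a tropomyosin (-0.90 ± 0.17), and was lost with the slide block (adjusted p = 0.159).

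Z-disc and M-band proteins anchor the filaments, and 27 of 33 rose while 2 fell (median 3.24). Csrp3, the muscle LIM protein, had levels of -2.65, -2.69 and -2.56 at proliferation and 4.19, 4.44 and 4.30 at day 5, a difference of 6.94 ± 0.21. Myoz2, a calcineurin-binding Z-disc protein, rose by 6.46 ± 0.14 and Klhl41, a kelch protein of the sarcomere, by 5.84 ± 0.17. Ankrd1, a stress-responsive titin partner, went the other way, from 4.35, 4.34 and 3.86 to 2.83, 2.89 and 2.21 (-1.54 ± 0.27; adjusted p = 0.0543 with the slide block). Xirp2, an actin-binding protein, fell slightly (-0.64 ± 0.16), a call that missed the threshold under the slide block (adjusted p = 0.112) and normexp background correction. The 4 sarcomere lists together had 57 of 69 genes higher and 4 lower, against 25.5% and 26.6% of all genes.

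Calcium release and uptake genes rose with the sarcomere: 25 of 32 were higher, with a median of 1.88. Hrc, which binds calcium inside the sarcoplasmic reticulum, had levels of -4.37, -4.88 and -4.77 at proliferation and 2.48, 2.84 and 2.38 at day 5 (difference 7.24 ± 0.18). Ryr1, the calcium release channel, rose by 5.90 ± 0.18, and Srl, which encodes sarcalumenin, by 6.05 ± 0.22. Casq2, a calsequestrin, rose by 5.61 ± 0.19, so release, storage and uptake genes all took part. Bin1, which shapes T-tubules, was the one member called lower (-1.20 ± 0.41; a second probe -1.50). With the slide block its adjusted p was 0.346 and its sign turned, and 4 of the 6 arrays compared each ended the call when left out (proliferation 1 and 2, day 5 1 and 3; adjusted p up to 0.109). Of 12 sarcolemmal channels and pumps, 9 rose and 2 fell. Fxyd1, a regulator of the sodium pump, and Scn4a, the muscle sodium channel, were above background on 0 of 3 proliferation arrays and at least 9.92-fold and 3.60-fold higher at day 5 by the probes used here. For Fxyd1, 3 further probes differed by 3.35, 1.49 and 3.67 on the log2 scale, of which the 1.49 is less than that bound. The 2 that fell were Fxyd5, a relative of Fxyd1 (-1.67 ± 0.17), and Atp1b1, a subunit of the pump (-1.49 ± 0.32; adjusted p = 0.654 with the slide block).

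At the acetylcholine receptor and its synapse, 9 of 17 genes rose and 3 fell. Chrng, the fetal gamma subunit, had levels of -1.55, -1.10 and -1.37 at proliferation and 4.15, 4.47 and 4.24 at day 5, a difference of 5.63 ± 0.20. Its adult counterpart Chrne did not pass the filter in either stage. Lrp4, the agrin receptor, rose by 3.62 ± 0.15 (a second probe by 1.79) and Dok7, the adaptor of the receptor kinase MuSK, by 2.12 ± 0.15. The falls were led by Nefm, the medium neurofilament subunit, which is also counted here as a neural marker and is described further below. Etv5, an ETS transcription factor (-1.03 ± 0.15), and Sntb2, a syntrophin, were the others.

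Among 26 fusion and adhesion genes, 12 rose and 6 fell. Mymk, which encodes the fusion protein myomaker, had levels of -2.20, -1.82 and -1.87 at proliferation and 3.91, 4.11 and 3.90 at day 5 (difference 5.93 ± 0.18). Itgb1bp2, which encodes the integrin partner melusin, was above background on 0 of 3 proliferation arrays and at least 42.1-fold higher at day 5. Jam2, a junctional adhesion molecule, fell from 3.97, 3.89 and 4.04 to 2.02, 1.94 and 1.83 (-2.04 ± 0.14). The falls were near the 26.6% of all genes called lower, and with the slide block 11 genes of the group were higher and 1 lower.

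Promoter windows from RefSeq (GRCm38.p6; 250 bases before to 50 bases after the transcript start, on the gene's strand) were searched on both strands for the E-box CAGCTG, the MEF2 site and the serum response element (CArG box). MyoD and myogenin bind E-boxes, and MEF2 factors are their partners. Of 112 windows of 88 genes in the sarcomere, calcium and synapse lists, 35.7% held the E-box, against 15.9% of 13289 windows of the genes tested and 16.3% of all 32851 windows. For the MEF2 site the shares were 11.6%, 1.33% and 1.86%, and for the CArG box 5.36%, 1.44% and 1.63%. Among genes that rose by 8-fold or more, 31.4% of 293 windows held the E-box. A gene with several transcript starts has several windows. A match describes the letters and does not show that a factor binds there. The windows of Myh3 and Tnnc2, the leading muscle genes, held none of these letters, while that of Mybph, the next gene of the muscle lists with 1 window, held an E-box. Myoz2 and Klhl41 were the leading genes whose window held both an E-box and a MEF2 site, and were chosen for these matches. The Mybph window (chr1:134193198-134193497, plus strand), the Myoz2 window (chr3:123034938-123035237, minus strand) and the Klhl41 window (chr2:69669870-69670169, plus strand) are printed in lower case 5′ to 3′ with the matches in capitals:
Mybph: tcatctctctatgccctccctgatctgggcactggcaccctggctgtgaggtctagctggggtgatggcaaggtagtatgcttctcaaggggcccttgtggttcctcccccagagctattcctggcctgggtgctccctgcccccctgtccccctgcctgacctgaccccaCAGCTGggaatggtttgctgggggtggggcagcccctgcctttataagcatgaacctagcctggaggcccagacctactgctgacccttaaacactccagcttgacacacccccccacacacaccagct
Myoz2: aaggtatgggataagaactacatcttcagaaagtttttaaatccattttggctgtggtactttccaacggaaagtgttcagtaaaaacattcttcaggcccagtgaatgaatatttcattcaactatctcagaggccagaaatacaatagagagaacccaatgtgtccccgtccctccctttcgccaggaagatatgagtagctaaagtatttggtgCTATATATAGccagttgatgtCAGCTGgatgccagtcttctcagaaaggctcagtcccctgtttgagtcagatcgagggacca
Klhl41: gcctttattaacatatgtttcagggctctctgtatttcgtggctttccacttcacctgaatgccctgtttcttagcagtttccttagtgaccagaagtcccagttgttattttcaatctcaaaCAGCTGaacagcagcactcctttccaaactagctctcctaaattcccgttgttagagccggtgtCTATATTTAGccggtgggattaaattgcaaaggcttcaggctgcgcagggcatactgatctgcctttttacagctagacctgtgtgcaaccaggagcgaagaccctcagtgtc

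In the Mybph window the E-box began at position -79, counted from 0 at the transcript start. In the Myoz2 window the MEF2 site began at -33 and the E-box at -12. In the Klhl41 window the E-box began at -127 and the MEF2 site at -63. All 3 genes were above background on all 6 arrays and rose by 5.84 to 7.65 on the log2 scale.

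Other genes rose as far as those of the contractile apparatus. Art1, an ADP-ribosyltransferase of the muscle cell surface, had levels of -5.90, -5.34 and -5.56 at proliferation and 2.24, 2.19 and 2.27 at day 5 (difference 7.83 ± 0.17). R3hdml rose by 7.74 ± 0.23 and Abra, an actin-binding protein of muscle, by 7.26 ± 0.18. Art1 and Abra were dim at proliferation, and with normexp background correction their differences were 6.30 and 5.50. The next genes were not above background on any proliferation array. Adora1, the adenosine A1 receptor, was at least 49.3-fold higher at day 5, and the small heat shock proteins Hspb3 and Hspb7 at least 29.1-fold and 25.3-fold by the probes used here. A second Hspb7 probe differed by 3.95 on the log2 scale, which is less than that bound. Such bounds hold for the scaling used here: normexp, which adds an offset to every signal, gave a smaller fold than the bound for all 18 named genes given one. In all, 115 of the 3346 genes called higher had 0 of 3 proliferation arrays above background, and 42 of the 3491 called lower had 0 of 3 day 5 arrays above it.

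Of 30 myogenic factors and partners, 17 rose and 3 fell, with a median of 0.67. Myod1 was already high at proliferation (5.71, 6.11 and 6.18) and reached 6.83, 6.97 and 6.98 at day 5, a difference of 0.93 ± 0.17, while Myog rose by 7.53 ± 0.24. Rb1, which encodes the retinoblastoma protein, rose by 1.47 ± 0.12 and Pax7, a factor of muscle stem cells, by 1.11 ± 0.16 from a low level. Msc, which encodes the repressor musculin, fell from 2.96, 3.05 and 3.36 to 1.39, 1.16 and 1.67 (-1.72 ± 0.21), and Eya1, a transcriptional co-activator, fell by 0.90 ± 0.12. Myf5 was the third member called lower (-0.39 ± 0.15), a call that ended under the slide block (adjusted p = 0.106), normexp and other settings, and when any single array of proliferation, array 2 of day 2, array 2 or 3 of day 5, or array 1 or 3 of day 8 was dropped (up to 0.1245). Mef2a, Mef2d, Srf and Myf6 had no call (-0.67, -0.23, 0.24 and -0.30).

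Id proteins hold myogenic factors inactive, and Notch signalling restrains differentiation. Of 26 genes of these groups, 10 rose and 6 fell. Id2 fell from 3.10, 3.30 and 3.12 to 1.20, 0.71 and 0.58 (-2.34 ± 0.17). Id1 (-1.28 ± 0.19) and Id3 (-0.77 ± 0.17) were lower too, but not past the threshold under the slide block (adjusted p = 0.0615 and 0.390). The other 3 that fell were Twist2, a repressor of myogenic factors (-1.13 ± 0.15), the Notch ligand Jag2 (-0.71 ± 0.17; adjusted p = 0.213 with the slide block) and Sirt1, a deacetylase (-0.78 ± 0.29; 0.104 with the block, and up to 0.1285 without 1 array, any of the 6 compared or array 2 of day 2). Of the Notch pathway, Heyl, an effector, rose by 5.05 ± 0.25, the ligand Dll1 by 3.91 ± 0.20 and the receptor Notch3 by 2.65 ± 0.16. Heyl had levels of -3.35, -3.12 and -4.11 at proliferation and 1.64, 1.63 and 1.30 at day 5.

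Splicing and RNA-binding regulators of muscle formed one of the lists with calls in both directions: 8 of 26 rose and 14 fell, with a median of -0.62. Srpk3, a kinase of splicing factors under muscle control, had levels of -5.43, -3.99 and -4.96 at proliferation and 2.36, 2.45 and 2.48 at day 5, a difference of 7.22 ± 0.30. Rbm24, a splicing regulator of striated muscle, went from -3.02, -3.03 and -3.09 to 2.10, 2.27 and 2.41 (5.30 ± 0.13). Rbfox1, which was above background on 0 of 3 proliferation arrays, was at least 4.32-fold higher at day 5, and Celf2 rose by 2.39 ± 0.17. The falls were smaller. Ptbp1, a splicing repressor of proliferating cells, fell from 4.48, 4.92 and 4.90 to 3.46, 3.69 and 3.47 (-1.23 ± 0.17; a second probe -1.18). Celf1 fell by 1.31 ± 0.28 (more by a second probe) and Mbnl3 by 1.23 ± 0.15. Of the mRNA-binding proteins of growing cells, Igf2bp3 fell by 1.30 ± 0.13. Igf2bp1 was lower as well (-2.07 ± 0.37), with 2 of 3 day 5 arrays above background, and its call did not hold under the slide block (adjusted p = 0.105) or normexp. Lin28b, a blocker of let-7 maturation, was also called lower, a call lost with normexp (adjusted p = 0.634).

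**Figure D2:**
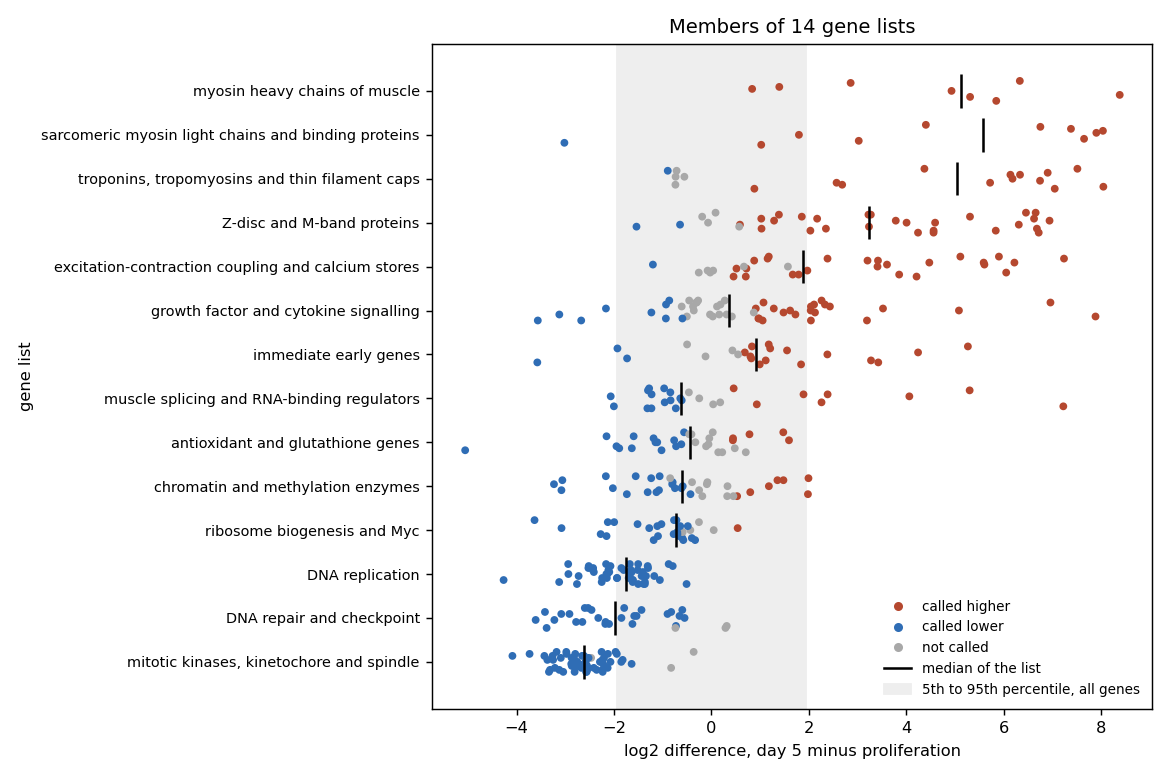
Each point is 1 gene of 14 lists, placed by its log2 difference (day 5 minus proliferation) and coloured by its call; black bars are list medians and the grey band runs from the 5th to the 95th percentile of all genes tested (-1.94 to 1.94). Myosin heavy chains have a median of 5.12 and mitotic genes of -2.62, and the splicing list has members at 7.22 (Srpk3) and below -2 (Igf2bp1).

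The general and the muscle form of a protein were followed in 29 pairs of genes, of which 25 had both members tested. Levels of different probes are not compared, only each gene's own difference between the stages. The muscle form rose in 21 of the 25. In 14 of these the general form had no call, in 5 it rose as well and in 2 it fell. With the slide block both of these falls lost their calls (limma adjusted p = 0.301 and 0.744), as did some rises of muscle and general forms. In 2 further pairs the general form alone was called, lower, and in 2 neither was called. Phosphofructokinase is in 2 pairs, with Pfkm set against Pfkl and Pfkp.

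Some pairs of energy metabolism showed the contrast plainly, and others did not. The tested pairs whose muscle form had no call were all of this group. Cox6a2, the heart and muscle form of a cytochrome oxidase subunit, had levels of -2.56, -2.08 and -2.09 at proliferation and 4.17, 4.62 and 4.24 at day 5 (6.59 ± 0.20), while the general form Cox6a1 had a difference of -0.21 ± 0.19 (adjusted p = 0.394). Cox8b, the muscle form of subunit 8, rose by 5.69 ± 0.19, and Cox8a had 0.52 ± 0.21 (adjusted p = 0.0601). The respiratory chain as a whole did not follow. Of 40 mitochondrial respiration genes, Cox6a2 among them, 6 rose and 6 fell, with a median of -0.05. With the slide block 2 were higher and 1 lower. Tfam, a factor of mitochondrial DNA, fell by 1.04 ± 0.22. Pgam2, muscle phosphoglycerate mutase, went from -3.88, -1.67 and -3.22 to 2.37, 2.48 and 2.31 (5.31 ± 0.42), against -0.23 ± 0.21 for Pgam1 (adjusted p = 0.399). Pygm, muscle glycogen phosphorylase, rose by 5.17 ± 0.21, and Pygb had 0.13 ± 0.14 (adjusted p = 0.454). Pfkm rose by 1.56 ± 0.15 and Pfkp, the platelet form, by 1.21 ± 0.17, while Pfkl had no call (0.05 ± 0.20, adjusted p = 0.854).

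Over 34 genes of glycolysis and glycogen, 10 rose, near the background share, and 7 fell, somewhat below it. The general genes that fell included Slc2a1, the basal glucose transporter (5.82 to 6.02 at proliferation, 4.78 to 4.88 at day 5; -1.13 ± 0.12), Tpi1, triosephosphate isomerase (-1.37 ± 0.13), and Hk2, a hexokinase (-1.17 ± 0.19). Slc2a4, the insulin-responsive transporter, did not pass the filter. Slc2a3, another glucose transporter, rose by 1.70 ± 0.15. Eno3, muscle enolase, had no call (0.06 ± 0.36, adjusted p = 0.907), nor had Eno1 (-0.11 ± 0.18, adjusted p = 0.650). Cpt1a, the liver form of carnitine palmitoyltransferase, fell by 1.18 ± 0.12, and the muscle form Cpt1b had -0.23 ± 0.17 (adjusted p = 0.281).

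Structural genes were paired in the same way. Acta1, skeletal alpha actin, rose from 4.48, 4.33 and 4.84 to 8.15, 8.30 and 8.22 (3.67 ± 0.22), and cytoplasmic Actb had -0.15 ± 0.15 (adjusted p = 0.435). Atp2a1, the fast calcium pump, rose by 6.22 ± 0.37 while the probe of Atp2a2 used here had no call (-0.08 ± 0.13, adjusted p = 0.638), although its second probe differed by 1.24. Actn2, the Z-disc actinin, was above background on 0 of 3 proliferation arrays and at least 24.9-fold higher, and Actn4 had 0.05 ± 0.19 (adjusted p = 0.853). Actn3 rose by 2.17 ± 0.16 and Actn1 fell by 0.49 ± 0.12, the second call being lost with the slide block (adjusted p = 0.301). Ckm, muscle creatine kinase, which was above background on 1 of 3 proliferation arrays, rose by 7.75 ± 0.23 and brain-type Ckb by 2.01 ± 0.15, so here both forms rose. The 2 pairs of the translation machinery moved little. Rpl3l, the muscle paralog of a ribosomal protein, rose by 0.81 ± 0.20 and Eef1a2, a muscle and nerve elongation factor, by 0.70 ± 0.26, neither of which kept its call under the slide block (adjusted p = 0.463 and 0.888), under which Eef1a2 turned sign. The call of Eef1a2 also ended without proliferation array 1 or 2 or any 1 day 5 array (adjusted p up to 0.162).

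**Figure D3:**
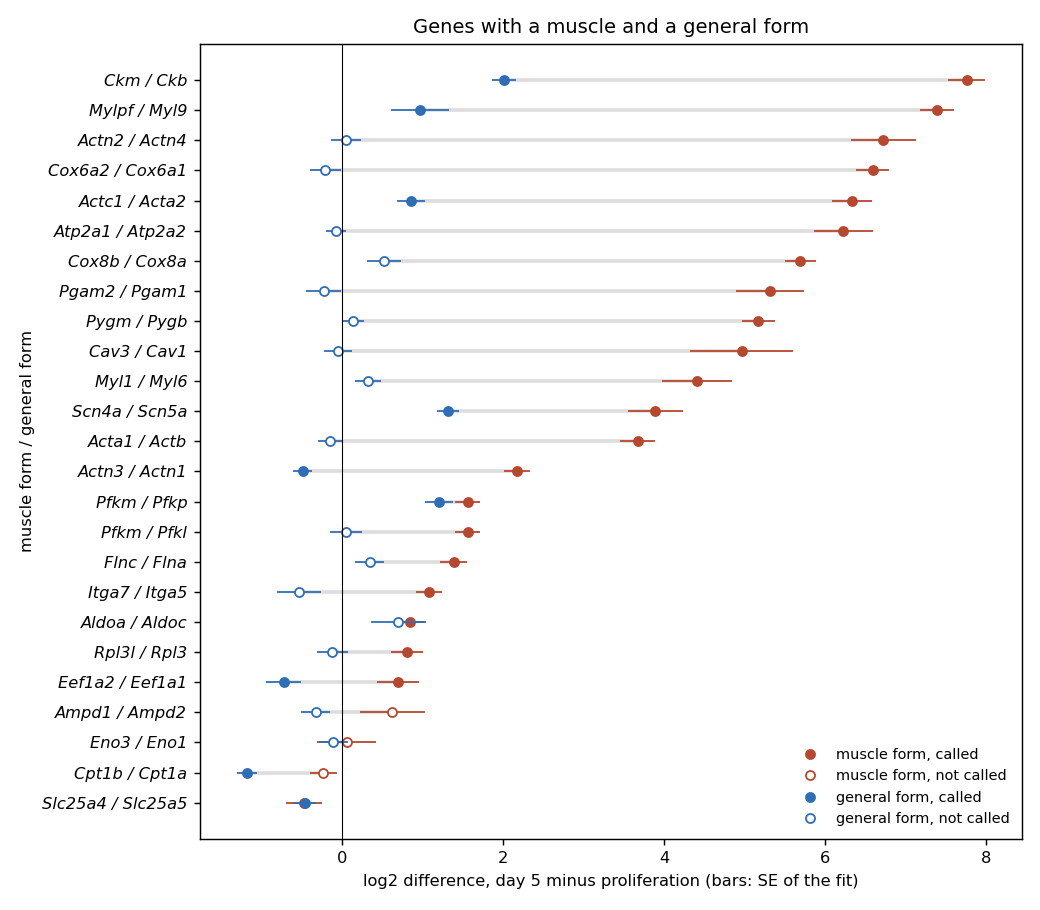
For 25 pairs the log2 difference (day 5 minus proliferation, bars are SE, n = 3 arrays per stage) is drawn for the muscle form and the general form; filled symbols passed an adjusted p of 0.05. Muscle forms lie to the right of their partners in most pairs, as for Cox6a2 (6.59) against Cox6a1 (-0.21), and Eno3 and Eno1 lie together near 0.

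Genes of DNA replication fell together: 48 of 48 tested were lower, with a median of -1.75, against 26.6% of all genes. Mcm3, a subunit of the replicative helicase, had levels of 4.11, 4.25 and 4.52 at proliferation and 0.11, -0.28 and 0.24 at day 5 (-4.27 ± 0.29, limma adjusted p = 5.55e-07). Prim1, the catalytic subunit of primase, fell by 3.12 ± 0.37, and Rrm2, a subunit of ribonucleotide reductase, by 2.94 ± 0.24. Tk1, thymidine kinase, went from 5.63, 5.86 and 5.80 to 3.38, 2.88 and 2.75 and so remained well above the arrays' 75th percentile. Helicase, primase and nucleotide supply genes were all in this group. With the slide block 43 of the 48 were called.

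Mitotic kinases and proteins of the kinetochore and spindle fell further, 53 of 56 with a median of -2.62. Nek2, a centrosomal kinase, had levels of 3.45, 3.01 and 3.32 at proliferation and -0.28, -0.19 and -0.03 at day 5 (-3.43 ± 0.23), Cenpe, a kinetochore motor, fell by 3.33 ± 0.19 and Ncapg2, a condensin subunit, by 3.73 ± 0.45. Hmmr, a spindle protein, was above background on 0 of 3 day 5 arrays and at least 4.96-fold lower, with an adjusted p = 0.185 under normexp. The 3 members without a call were Bub1, Cenpf and Kif20a (-0.83, -2.47 and -0.36). Of 33 cyclins, E2F factors and regulators, 24 fell and 3 rose. Ccnf, cyclin F, went from 0.62, 1.75 and 1.59 to -2.68, -2.96 and -2.97 (-4.19 ± 0.37), Ccnb1, cyclin B1, fell by 3.01 ± 0.15 and Ccnd1, cyclin D1, was lower too (-2.16 ± 0.14). Ccnd3, cyclin D3, was an exception: it rose from 4.23, 4.96 and 5.12 to 6.41, 6.38 and 6.42 (1.63 ± 0.24). Among inhibitors, Cdkn1a, which encodes p21, rose by 1.69 ± 0.25 and Gadd45a, a growth arrest gene, by 1.44 ± 0.11, while Rbl1, the pocket protein p107, fell by 1.16 ± 0.15 (a second probe -2.35). In all, 7 of 18 inhibitors and pocket proteins rose and 5 fell.

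The same RefSeq windows were searched for 3 elements of cell cycle promoters: the CHR TTTGAA, the CCAAT box bound by NF-Y, and the E2F site (TTTCCCGC, TTTGGCGC, TTTCGCGC or TTTGCCGC), each on both strands. Of 51 windows of 47 mitotic genes, 66.7% held the CHR, against 12.5% of windows of all genes tested and 14.9% of the 47 windows of the replication list. The E2F site gave the reverse order, with 31.9% of replication windows, 11.8% of mitotic windows and 3.62% of windows of genes tested. The CCAAT box was found in 68.6% of mitotic and 59.6% of replication windows and in 37.7% of those tested. Mcm3, Ccnf and Ncapg2 had the largest falls in the cell cycle lists among genes above background on all 6 arrays with 1 window. Their windows (chr1:20820263-20820562, minus strand; chr17:24251360-24251659, minus strand; chr12:116405186-116405485, plus strand) are printed 5′ to 3′ with the matches in capitals:
Mcm3: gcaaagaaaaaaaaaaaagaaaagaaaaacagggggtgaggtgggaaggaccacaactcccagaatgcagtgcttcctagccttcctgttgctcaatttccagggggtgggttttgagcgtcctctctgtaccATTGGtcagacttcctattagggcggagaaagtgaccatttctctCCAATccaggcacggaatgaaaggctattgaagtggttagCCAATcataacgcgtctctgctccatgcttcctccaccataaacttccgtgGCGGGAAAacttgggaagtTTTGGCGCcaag
Ccnf: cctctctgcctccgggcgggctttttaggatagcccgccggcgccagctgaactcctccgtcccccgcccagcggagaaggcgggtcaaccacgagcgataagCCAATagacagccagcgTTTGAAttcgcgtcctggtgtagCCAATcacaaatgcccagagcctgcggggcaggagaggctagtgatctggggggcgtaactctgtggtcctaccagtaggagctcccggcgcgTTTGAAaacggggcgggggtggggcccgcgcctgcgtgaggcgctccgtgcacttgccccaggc
Ncapg2: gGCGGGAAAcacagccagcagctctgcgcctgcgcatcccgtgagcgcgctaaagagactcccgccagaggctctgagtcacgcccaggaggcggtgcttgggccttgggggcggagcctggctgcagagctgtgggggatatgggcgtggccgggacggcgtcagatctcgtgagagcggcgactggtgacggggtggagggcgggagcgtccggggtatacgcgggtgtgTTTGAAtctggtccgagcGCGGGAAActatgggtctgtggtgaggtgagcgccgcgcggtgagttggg

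The Mcm3 window held 3 CCAAT boxes upstream of the start and 2 E2F sites downstream of it, beginning at positions 19 and 38. The Ccnf window held a CHR at -14, another at -130, and 2 CCAAT boxes. The Ncapg2 window held a CHR at -18 and 2 E2F sites, at -249 and at 0. A replication gene, a cyclin gene and a condensin gene are thus shown with different sets of the 3 elements.

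**Figure D4:**
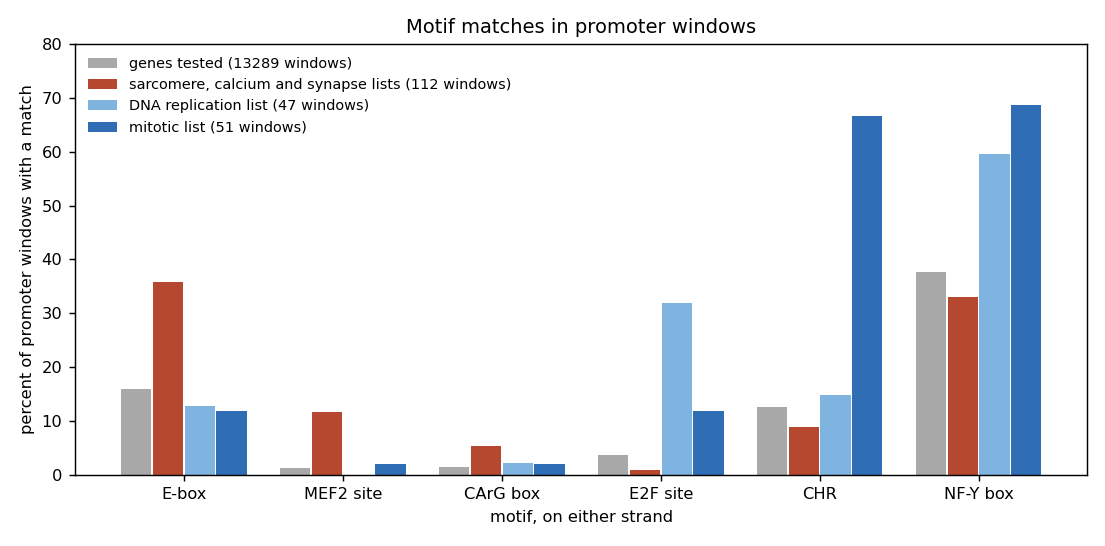
Bars give the percent of RefSeq promoter windows of 300 bases with at least 1 match on either strand, for all genes tested, the sarcomere, calcium and synapse lists, the replication list and the mitotic list. The E-box is at 35.7% in the muscle lists against 15.9% of tested windows, the CHR at 66.7% in the mitotic list against 12.5%, and the E2F site at 31.9% in the replication list against 3.62%.

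DNA repair and checkpoint genes fell with replication, 27 of 30 with a median of -1.97. Brca1, a factor of homologous repair, had levels of 1.35 to 1.42 at proliferation and of -1.05, -1.45 and -1.13 at day 5 (-2.60 ± 0.14). Fancd2, of the Fanconi anaemia pathway, fell by 3.08 ± 0.40, and Rad18, a ubiquitin ligase of damage tolerance, was lower (-3.42 ± 0.31) with 2 of 3 day 5 arrays above background. Atm, the checkpoint kinase, was lower (-3.38 ± 0.83), but its call did not hold under the slide block (adjusted p = 0.892) or normexp. Rad51c, Fancc and Ddb2 had no call.

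Replication-dependent histone genes are transcribed in S phase: 27 of 47 fell and 3 rose. H3c8, a histone H3 gene, went from -1.51, -0.78 and -0.80 to -4.08, -4.30 and -3.98 (-3.09 ± 0.19), and H2ac4, a histone H2A gene, fell by 2.57 ± 0.23. H1f2, a linker histone, rose from 4.41, 4.56 and 4.65 to 5.86, 6.01 and 5.79 (1.35 ± 0.15). Histone genes are near-identical copies, and a probe may pick up more than 1 of them.

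Chromatin regulators were lower more often than higher, 18 of 34 against 7. Hmga2, an architectural protein of embryonic and growing cells, had levels of 5.36, 5.21 and 5.27 at proliferation and 2.07, 2.02 and 2.06 at day 5 (-3.23 ± 0.13). Hells, a remodeller needed for DNA methylation, fell by 3.08 ± 0.16. Uhrf1, which brings Dnmt1 to replicating DNA, was lower (-2.16 ± 0.21), and so was Dnmt1 itself (-1.31 ± 0.14). Members with related functions moved apart. Ezh2, the catalytic subunit of Polycomb complex 2, went from 4.04, 4.13 and 3.96 to 1.92, 1.91 and 2.23 (-2.02 ± 0.13), while its paralog Ezh1 went from 2.46, 2.16 and 2.46 to 3.59, 3.70 and 3.87 (1.36 ± 0.13). The maintenance methyltransferase Dnmt1 fell and the de novo enzyme Dnmt3a rose from -0.68, -0.70 and -0.64 to 1.34, 1.39 and 1.24 (1.99 ± 0.14). Kdm5b (1.98 ± 0.15) and Kdm6b (1.48 ± 0.19), histone demethylases, rose as well.

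Ribosome biogenesis, the making of new ribosomes in the nucleolus, was lower: 24 of 29 genes fell and 1 rose, with a median of -0.72. Nop56, a core protein of small nucleolar RNPs, had levels of 1.03, 0.15 and -0.45 at proliferation and -3.30, -3.29 and -3.58 at day 5 (-3.63 ± 0.40). Npm1, nucleophosmin, fell by 2.15 ± 0.16, Dkc1, the RNA pseudouridine synthase dyskerin, by 2.27 ± 0.16, and Odc1, ornithine decarboxylase, by 2.13 ± 0.17. With the slide block 15 of the 24 were called. The 1 rise was Ubtf, a factor of RNA polymerase I (0.54 ± 0.17), and was lost with the slide block (adjusted p = 0.884), with normexp, without proliferation array 3 and without day 5 array 2 (up to 0.0703 without 1 array). Of 41 genes of the ribosome itself, 10 fell and 4 rose, with a median of -0.19. Rps23 fell by 3.26 ± 0.43 (-1.89 with the slide block) and Rpl22 rose by 1.58 ± 0.21.

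Genes often used as controls were examined for comparison. Of 16, 9 fell, with a median of -0.41, and with the slide block 2 were called lower. Actb and Gapdh had no call (-0.15 and 0.31), while Rplp0 fell by 1.29 ± 0.15 and Tfrc, the transferrin receptor, by 1.51 ± 0.15.

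**Figure D5:**
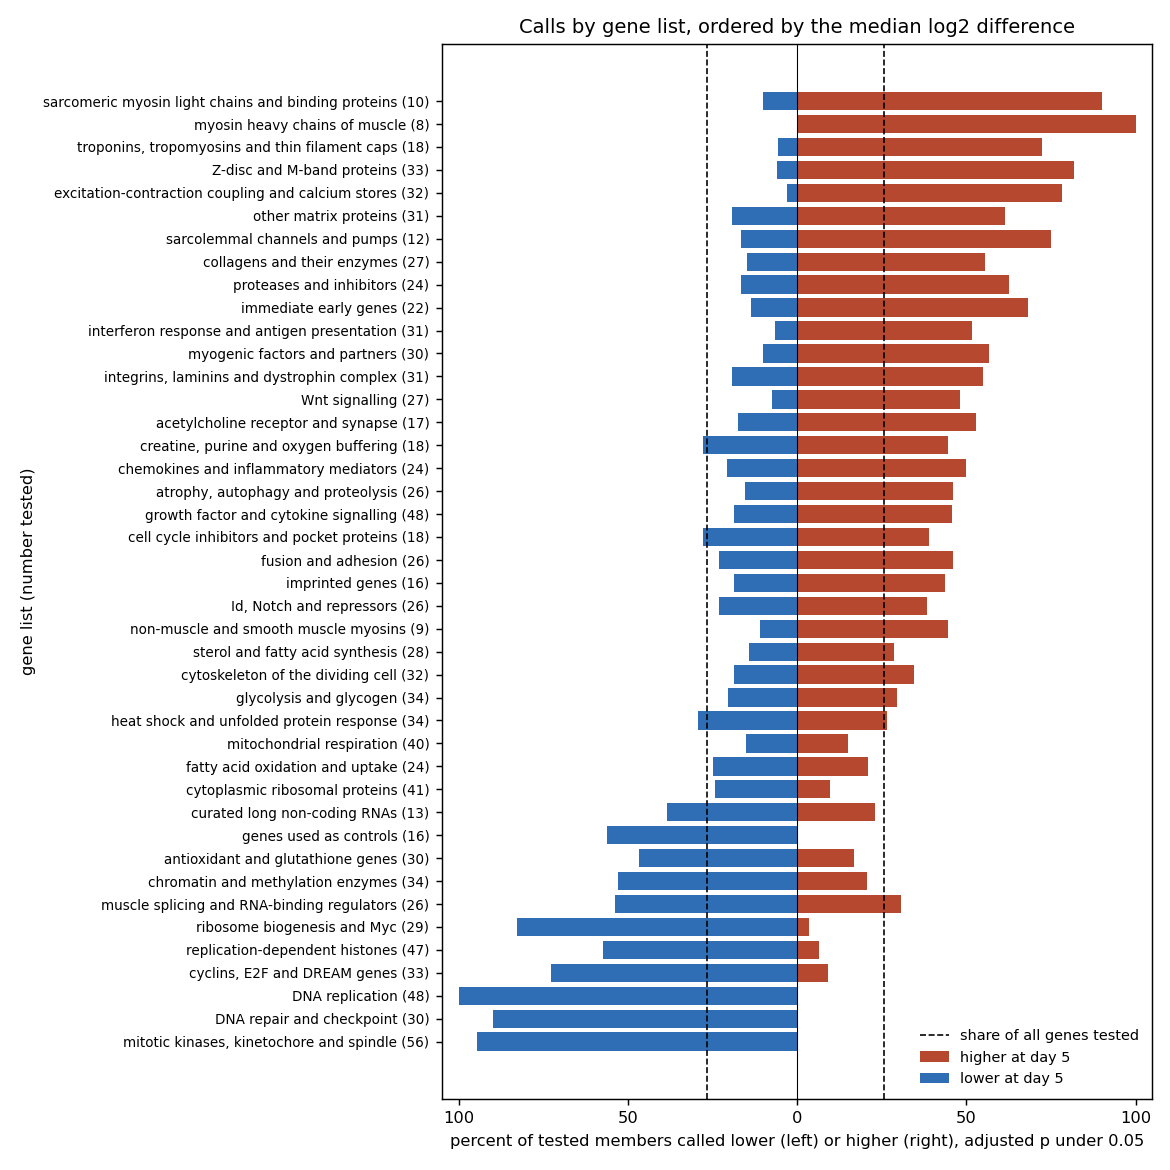
Bars show, for each gene list with at least 8 tested members, the percent of tested members called lower (left) or higher (right) at an adjusted p under 0.05; dashed lines mark the shares over all genes, 26.6% and 25.5%. Lists are ordered by their median difference, so the sarcomere lists (8 of 8 myosin heavy chains higher) and the replication and mitotic lists (48 of 48 and 53 of 56 lower) stand at opposite ends.

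Growth factors and cytokines held some of the widest changes outside the sarcomere: 22 of 48 genes rose and 9 fell. Igf1, insulin-like growth factor 1, had levels of -7.76, -7.66 and -6.50 at proliferation, where 1 of 3 arrays was above background, and 0.54, 0.63 and 0.56 at day 5. Its measured difference was 7.89 ± 0.31, with 2 of 3 proliferation arrays at background, and 3 further probes of the gene gave 8.26 to 8.49. Igf2, the other ligand, went from -1.40, -0.63 and -1.23 to between 3.96 and 4.02 (5.08 ± 0.29). Both ligands of the pathway rose, and the binding proteins Igfbp4 (3.19 ± 0.23) and Igfbp5 (2.04 ± 0.28) rose too. Fgf21, a hormone that muscle secretes under stress, rose by 6.96 ± 0.30 and Il15, a myokine, by 3.52 ± 0.21. Areg, amphiregulin, a ligand of the EGF receptor, fell from 3.30, 3.06 and 3.03 to -0.18, -0.69 and -0.44 (-3.56 ± 0.18). Grem1, a BMP antagonist, fell by 3.12 ± 0.18, and its target Bmp4 rose by 2.43 ± 0.23. Hgf, the factor that activates satellite cells, fell by 2.17 ± 0.21 and its receptor Met by 1.23 ± 0.18.

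In Wnt signalling 13 of 27 genes rose and 2 fell. Wnt9a, a ligand, went from -0.60, -0.53 and 0.43 to 2.40, 2.19 and 2.74 (2.68 ± 0.28), and Axin2, a target of the pathway, rose by 1.32 ± 0.14. Dkk2, an inhibitor, fell by 2.38 ± 0.19 and Lgr6, a receptor for R-spondins, by 2.91 ± 0.30, while its relative Lgr5 rose by 2.70 ± 0.15 from a level above background on 1 of 3 proliferation arrays. Ligand, target and receptor genes were all among the rises.

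Immediate early genes respond to growth factors and stress within minutes. Of 22, 15 rose and 3 fell. Fos had levels of -0.23, 0.09 and 0.19 at proliferation and 5.41, 5.28 and 5.16 at day 5, a difference of 5.27 ± 0.18. Egr1, a zinc finger factor, went from 0.87, 1.41 and -0.89 to 4.57, 4.95 and 4.59 (4.24 ± 0.45), and Nr4a1, a nuclear receptor, rose by 3.43 ± 0.21. Fosl1, the Fos relative known as Fra-1, went the other way, from 3.12, 3.00 and 3.69 to -0.28, -0.54 and -0.08 (-3.57 ± 0.27). Members of the AP-1 family thus moved in both directions. Nr4a2 fell by 1.93 ± 0.16, against the rise of Nr4a1, and Dusp2, a phosphatase, was lower (-1.73 ± 0.32; adjusted p = 0.0869 with the slide block).

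Matrix genes rose on balance: 15 of 27 collagens and their enzymes were higher and 4 lower, and 19 of 31 other matrix proteins were higher and 6 lower. Col6a2, a chain of the collagen around muscle fibres, had levels of -0.80, -0.44 and -0.65 at proliferation and 4.68, 4.92 and 4.62 at day 5 (5.37 ± 0.16), and Col6a1 rose by 4.21 ± 0.25. Prelp, a small leucine-rich proteoglycan, rose by 5.14 ± 0.14. Dcn, decorin, went from 2.17, 2.21 and 2.25 to 6.41, 6.46 and 6.90 (4.38 ± 0.19). Col7a1, the collagen of anchoring fibrils, fell from 0.28, -0.97 and -0.93 to -3.76, -3.98 and -3.98 (-3.37 ± 0.31), and Thbs2, a thrombospondin, fell by 1.92 ± 0.14. Markers of tendon and fibroblasts moved with this group: 4 of 7 tested rose and 1 fell, Dpt (dermatopontin, above background on 2 of 3 proliferation arrays) by 5.87 ± 0.51 and Pi16 by 4.65 ± 0.23, and their summed signal was 17.1 to 29.7 at proliferation and 46.9 to 51.5 at day 5. Thy1 and Pdgfra of that list had no call, and Tcf21 did not pass the filter. Their part in the matrix result was not tested.

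Among proteases and inhibitors 15 of 24 rose and 4 fell. Mmp3, stromelysin, went from -2.97, -2.43 and -2.60 at proliferation to a mean of 1.30 at day 5 (3.97 ± 0.22), and Mmp2 rose by 2.48 ± 0.20. Plaur, the urokinase receptor, went from 1.75, 1.53 and 1.51 to -1.76, -1.15 and -1.49 (-3.06 ± 0.28).

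Antioxidant and glutathione genes were lower in 14 of 30 cases and higher in 5. Gsta2, a glutathione transferase, had levels of 0.71, 0.43 and 0.22 at proliferation and -4.63, -4.53 and -4.65 at day 5 (-5.05 ± 0.24). Nqo1, a quinone reductase, went from 2.03, 2.65 and 2.54 to 0.30, 0.19 and 0.27 (-2.15 ± 0.18), and Gclm, a subunit of the enzyme that makes glutathione, fell by 1.95 ± 0.11. Srxn1, sulfiredoxin (-1.89 ± 0.25), and Hmox1, haem oxygenase 1 (-1.63 ± 0.17), fell too. These 5 are known targets of the stress factor NRF2. Gpx3, the secreted glutathione peroxidase, rose by 1.59 ± 0.22. With the slide block 7 of the list were called lower and 2 higher.

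Protein breakdown genes included the atrophy ligases of muscle: 12 of 26 genes rose and 4 fell. Trim63, which encodes MuRF1, was above background on 1 of 3 proliferation arrays and rose by 4.01 ± 0.29, and Fbxo32, which encodes atrogin-1, rose by 1.57 ± 0.15. Map1lc3a, an autophagosome protein, went from 4.24, 4.78 and 4.98 to 7.68, 7.73 and 7.93 (3.11 ± 0.22). Of 34 heat shock genes, 9 were higher and 10 lower, near the background shares. The small heat shock proteins of muscle given above were among the rises, and the mitochondrial chaperone Hspd1 fell by 1.79 ± 0.17.

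Interferon response and antigen presentation genes were higher in 16 of 31 cases and lower in 2. Tap2, a peptide transporter, went from -1.32, -0.80 and -1.09 to 0.68, 0.83 and 0.48 (1.73 ± 0.16), and Irf7, a transcription factor of the pathway, rose by 1.71 ± 0.13. Ifit2 was lower, at 1.34, 0.87 and 0.98 against 0.08, 0.15 and 0.38 (-0.86 ± 0.18). Fewer chemokine genes were called with the slide block: 12 of 24 rose and 5 fell, and with the block 2 were higher and 2 lower. Cxcl14 rose by 5.21 ± 0.55, with day 5 levels of -0.33, -0.47 and 1.34.

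Of 28 sterol and fatty acid synthesis genes, 8 rose, near the background share, and 4 fell, below it. Srebf1, a transcription factor of lipid synthesis, rose by 1.76 ± 0.12 and Fasn, fatty acid synthase, by 1.08 ± 0.16. Elovl6, a fatty acid elongase, fell by 1.37 ± 0.22. Fabp5, a fatty acid carrier counted with the oxidation and uptake genes below, fell by 2.34 ± 0.18.

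Of 31 genes that anchor the muscle fibre (integrins, laminins and members of the dystrophin complex), 17 were higher and 6 lower, and 12 and 1 with the slide block. Cav3, the muscle caveolin, was above background on 0 of 3 proliferation arrays and at least 8.41-fold higher at day 5. The sarcoglycans, which join dystrophin in the membrane, included Sgca, which went from -3.55, -3.34 and -3.31 to -1.51, -0.65 and -1.49 (2.18 ± 0.24). Itga4, an integrin subunit, rose by 2.29 ± 0.20. Cav2, the widely expressed caveolin, went from 1.95, 1.94 and 1.69 to 0.46, 0.71 and 0.54 (-1.28 ± 0.19), and was the member called lower in both fits.

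Of 24 genes of fatty acid oxidation and uptake, 5 were higher and 6 lower, at or below the background shares. Acsl3, an acyl-CoA synthetase, went from -0.65, -0.80 and -0.82 to 0.90, 0.80 and 0.97 (1.64 ± 0.13). Fabp5, given above, had the largest fall of this group. Pdk4, a kinase that restrains glucose oxidation, fell by 0.95 ± 0.14, and Plin2, a lipid droplet protein, was lower (-0.95 ± 0.15). Among 18 genes of creatine, purines and oxygen buffering, 8 rose and 5 fell. Mb, which encodes the oxygen store myoglobin, had levels of -7.03, -6.66 and -5.31 at proliferation, where 1 of 3 arrays was above background, and 2.43, 3.19 and 2.70 at day 5 (9.11 ± 0.41). Gamt, which makes creatine, rose by 1.72 ± 0.16 (a second probe by 0.75).

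The list for the cytoskeleton of the dividing cell had 11 of 32 genes higher and 6 lower, and 4 and 2 with the slide block. Its largest rise was that of cardiac alpha actin (6.33 ± 0.25), which is counted as a muscle form in the pairs above. Stmn2, a microtubule destabiliser, went from 0.94, 0.99 and 0.93 to -1.65, -1.32 and -1.14 (-2.33 ± 0.18), and its relative Stmn1 fell by 1.72 ± 0.21. Tubb5, a tubulin, was lower too (adjusted p = 0.0663 with the slide block). Among non-muscle and smooth muscle myosins Myh14 rose by 2.89 ± 0.15 and the myosin kinase Mylk by 1.86 ± 0.15, while Myh9, Myh10 and Myl6 had no call. Of 16 imprinted genes tested, 7 rose and 3 fell, and with the slide block 3 were higher and 1 lower. Plagl1, a zinc finger factor, went from -1.45, -1.64 and -1.64 to -3.20, -3.22 and -3.51 (-1.73 ± 0.13).

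The largest falls among genes above background on all 6 arrays were not in the cell cycle lists. Nefm, the medium neurofilament subunit, had levels of 4.07, 4.22 and 4.25 at proliferation and -1.25, -1.45 and -0.93 at day 5 (-5.39 ± 0.20), and Nefl, the light subunit, fell from 4.77, 5.00 and 4.76 to 0.30, 0.33 and 0.30 (-4.54 ± 0.16). Serpinb2, an inhibitor of urokinase, fell from 0.65, 1.15 and 1.14 to -4.62, -5.12 and -4.89 (-5.85 ± 0.22), and 12 of the 20 tested Serpinb genes fell while 2 rose. Havcr2, the immune receptor TIM-3, fell by 5.76 ± 0.28. With normexp its difference was -3.25. Frrs1, a ferric reductase, fell by 4.64 ± 0.50 (a second probe -3.84), and its difference was -2.15 with the slide block and -2.55 with normexp, so its size depends on the setting.

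Families of near-identical genes were among these falls, and their probes may read more than 1 member. All 4 tested Prl2c genes, which encode proliferins, secreted relatives of prolactin, were lower. Prl2c3 went from 6.09, 6.21 and 6.11 to 1.29, 1.17 and 1.71 (-4.74 ± 0.18). Prl2c5 fell by 5.30 ± 0.28 and Prl2c2 by 4.94 ± 0.20, while the call of Prl2c1 (-2.29 ± 0.50) was lost with the slide block (adjusted p = 0.317). Of 15 tested Vmn2r genes, pheromone receptors of the nose, 10 fell. Vmn2r79 fell from -0.12, -0.42 and -1.19 to -6.73, -6.67 and -6.39 (-6.02 ± 0.34; -3.46 with normexp) and Vmn2r78 was lower as well (-4.89 ± 0.38). The 3 tested Zscan4 genes, known from the early embryo, were above background on 3 of 3 proliferation arrays and on 0 of 3 day 5 arrays: Zscan4d was at least 11.3-fold, Zscan4c 10.8-fold and Zscan4f 9.57-fold lower. Igsf5, a junctional adhesion molecule, was at least 23.9-fold lower in the same sense. Its difference was -4.93 ± 0.55, against -3.02 with the slide block and -1.17 with normexp.

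Markers of other cell types were mostly dim or lower at day 5. Of 10 neural and glial markers 6 were tested, 1 rose (Map2) and 4 fell, led by the neurofilaments. Their summed signal was 65.0 to 78.5 at proliferation and 18.8 to 21.6 at day 5, and Nefh, Rbfox3, Syp and S100b did not pass the filter. Keratinocyte markers had 5 of 8 lower and 1 higher, with a sum of 27.9 to 40.7 against 7.32 to 7.95. Sprr2h, a cornified envelope gene, fell by 6.81 ± 0.34 and was above background on 1 of 3 day 5 arrays, and Sprr1a, its relative, was lower as well (-3.46 ± 0.18). Of 5 tested macrophage markers 2 were higher and 3 lower, and Ptprc, Adgre1 and Itgam did not pass the filter. Of 3 tested endothelial markers Tek rose by 2.38 ± 0.17, while Kdr (-2.92 ± 0.26) and Cdh5 (adjusted p = 0.0588 with the slide block) were lower with 2 of 3 day 5 arrays above background, and Pecam1, Tie1, Emcn, Vwf and Cldn5 did not pass. Of 2 tested adipocyte markers Pparg fell, and of 7 bone and cartilage markers 1 was higher and 5 lower. Their summed signals were 1.46 to 1.75 against 0.923 to 1.25 for macrophages, 0.211 to 0.291 against 0.697 to 0.899 for endothelium, 4.602 to 5.65 against 1.81 to 2.02 for adipocytes and 14.4 to 17.7 against 11.04 to 11.6 for bone and cartilage. With the slide block 1 macrophage marker was called higher and 0 lower, and 0 bone and cartilage markers were called either way. Higher and lower calls were then 1 and 1 for endothelium, 0 and 1 for adipocytes, 1 and 2 for neural markers and 0 and 5 for keratinocyte markers.

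The array was designed for long non-coding RNAs, and probes were classed by their accession. Of mRNA probes 52.6% were called, of curated non-coding probes (RefSeq NR records) 47.2%, of other transcripts (AK, uc and similar accessions, not shown here to be non-coding) 44.5%, and of ultraconserved elements 32.3%. Curated non-coding probes were called lower more often than higher, 55 against 29 of 178. Other transcripts gave 1265 higher and 1310 lower of 5781. Ultraconserved elements gave 12 higher and 31 lower of 133. The classes also differed in signal, with median levels of 0.03, -0.15, -3.29 and -4.14 in the order named.

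The curated RNA with the largest rise was NR_001592, which has no symbol in the reference table used here: it had levels of 5.51, 6.20 and 5.97 at proliferation and 8.17, 8.65 and 8.49 at day 5 (2.54 ± 0.34). It was thus bright in both stages. NR_027640 followed with 1.89 ± 0.27, and Peg13, an imprinted RNA, rose by 1.23 ± 0.17. Gm10052 went from 3.56, 3.73 and 3.56 to -0.42, 0.20 and 0.23 (-3.62 ± 0.38; -2.06 with the slide block), 2700099C18Rik fell by 2.78 ± 0.18 (-2.77 with the block) and Gm5424 by 2.05 ± 0.17. Among well-known RNAs, Snhg3 (-1.16 ± 0.11) and Snhg1 (-1.04 ± 0.15), hosts of small nucleolar RNAs, fell, Norad rose by 0.92 ± 0.18, and Malat1 was higher by 0.57 ± 0.15 with its call lost under the slide block (adjusted p = 0.406). Neat1 was lower (-0.93 ± 0.26; adjusted p = 0.0939 with the block).

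Other transcripts reached the sizes of muscle mRNAs. The transcript uc009sqw had levels of -4.32, -4.23 and -4.34 at proliferation and 2.29, 2.69 and 2.37 at day 5 (6.75 ± 0.20), uc009use rose by 6.30 ± 0.21 and uc007cud by 5.80 ± 0.39. AK015549 fell from 1.05, 1.51 and 1.69 to -4.00, -4.07 and -3.85 (-5.39 ± 0.27), and uc009mix fell by 4.21 ± 0.27. The stages did not overlap for any of these 5, which were chosen for large changes, nor for 60.3% of all genes tested. Of the ultraconserved elements, uc.421+ rose by 2.43 ± 0.15 and uc.456+ fell by 1.49 ± 0.23, while the calls of uc.265+ (1.54 ± 0.35) and uc.129+ (-1.79 ± 0.34) did not hold under the slide block (adjusted p = 0.150 and 0.145).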

How the data were processed

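RNA from 12 one-colour Agilent arrays was used, 3 per stage, and 6 of them are compared here. Each deposited file holds the intensity of 1 array, which the authors extracted from scans. The submitters' processing notes name Agilent Feature Extraction 10.5.1.1. The processed green signal is already background-treated, per the file headers, and 0 spots were saturated. The number of arrays limits the precision.

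Controls and population outlier spots were left out, spots of a probe were averaged, and the deposited intensity was converted to log2 minus each array's 75th percentile. Between 56.9% and 69.5% of spots were well above background on the 6 arrays. The median negative-probe signal was 2.42 to 6.25 at proliferation and 1.39 to 2.83 at day 5. limma (3.58.1, R 4.3.3) fitted 4 stage means over all 12 arrays, which share 1 estimate of the spread. limma's adjusted p-values are over all 21691 probes. The code was tested on simulated data.

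The comparison, gene lists and pairs were chosen with earlier results of these data known. Genes named are the 10 largest rises and falls above background on all 6 arrays, up to 4 leading members per direction of each list, members that went against their list, isoform pairs, markers, leading non-coding probes, and genes above background in 1 stage only. Named members beyond these (Myod1, Myh8, Myh2, Tnni2, Casq2, Pax7, Ptbp1, Mbnl3, Tk1, Cenpe, Ccnd1, Brca1, Fancd2, Uhrf1, Dnmt1, Ezh2, Odc1, Igfbp4, Igfbp5, Bmp4, Axin2, Hmox1, Irf7, Prl2c1) and the gene families of the largest falls were chosen after their values were seen. Symbols came from a RefSeq table of GRCm38.p6 (22216 probes named), and promoter windows from RefSeq with the same build. Per the file headers the array design used mm9, so coordinates of probes are not given. Some members of the lists and pairs are not reported here. "At least N-fold" sets the bright stage's mean against the higher of the probe's signal and the lowest signal well above background on each dim array. The files hold no mean signal column, so normexp (offset 50) used median signals. Plots were drawn with matplotlib 3.10.9.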

Additional observations from a re-analysis of the deposited data

How the results depend on the processing

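With spots flagged as non-uniform left out, 11486 probes could be tested and some arrays dropped out for single probes. There, 2777 probes were higher and 2404 lower, and the calls were 21 higher in the sarcomere lists, 22 higher in the calcium, synapse and channel lists, 10 lower in replication, 23 lower in mitosis, 10 lower in ribosome biogenesis, 3 higher among collagens, 3 higher in sterol synthesis and 8 higher in the interferon list. Among the named genes with a call, the slide as a fixed block turned the sign of 2, Bin1 (0.623) and Eef1a2 (-0.096), and gave 2899 higher and 2416 lower probes, with 15 lower in ribosome biogenesis. Of 232 named genes with a call, the folds of 19 shrank and of 16 grew by over 1.5 times with that block, and of 62 and 1 with normexp. Among those that shrank with the block, given here by their log2 differences, were Mcm3 (-3.22), Ccnf (-3.19), Prim1 (-1.96), Nop56 (-2.42), Gsta2 (-4.06), Havcr2 (-5.12), Lgr6 (-1.71), Prl2c1 (-1.37) and Hspb3 (5.33). A change of at least 1 on the log2 scale left 2779 higher and 2978 lower, with 12 lower in ribosome biogenesis and 4 higher in sterol synthesis. Of 282 single genes and probes followed, 36 lost a call or turned sign in some setting.

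Leaving out 1 array gave 4853 to 5476 higher and 4695 to 5469 lower probes. The slide as a random block gave 5297 and 5289, and the 6 arrays alone 5035 and 4985. normexp moved the median of all probes to 0.10 and gave 5936 higher and 4156 lower. The calls of Myl7, Hmmr and Lin28b, probes not above background on all day 5 arrays, were lost with it. Scaling to the 75th percentile of probes detected throughout gave 5027 and 5973.

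With the replicate number as a block, 5386 probes were higher and 5446 lower. Arrays of the same number correlated in their deviations from the stage means at 0.0783, 0.142 and 0.212, and each array correlated best with its own number, which is a hint from the data and not from the design. The numbers were therefore not taken to pair the arrays.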
